A study of Mus musculus with 31 samples.

Results

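Ligands and receptors of the tumour necrosis factor (TNF) superfamily were followed in the kidneys of cystic Pcy/CD1 mice and wild-type CD1 mice. Members were taken by name, as every gene whose symbol begins with Tnfsf or Tnfrsf and a number, together with Tnf, Lta, Ltb, Fas, Fasl, Cd40, Cd27, Ltbr, Cd70 and Eda2r. Of 23509 genes in the count tables, 42 carried such a name, and the 36 with at least 10 counts in at least 5 of 31 mice were kept. These were 13 ligands, 5 receptors with an intracellular death domain, 14 receptors that bind TRAF adaptors and 4 decoy or other receptors. The 6 that fell short of the count minimum were Cd70, Fasl, Tnfrsf17, Tnfrsf8, Tnfsf18 and Tnfsf4.

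Pcy/CD1 mice carry the recessive pcy allele on an outbred CD-1 background and develop slowly progressing polycystic kidneys. From 5 to 30 weeks of age, 12 male mice received PBS and 14 received RGLS4326, an oligonucleotide inhibitor of miR-17, at 25 mg kg-1 by subcutaneous injection, given monthly by the labels. The PBS schedule is weekly in one label and monthly in another. The third group held 5 untreated, age-matched wild-type males, so that wild type differs from PBS both in the pcy allele and in having had no injections. All kidneys were collected at 30 weeks, and poly(A) RNA of each mouse was sequenced as 1 library. Whole kidney RNA was used, so that fewer cells of a type and less RNA per cell cannot be told apart in any value below.

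TNF superfamily ligands are mostly trimeric membrane proteins that act on neighbouring cells or are shed, and their receptors carry cysteine-rich domains outside the cell. Death-domain receptors can start apoptosis or necroptosis through FADD, TRADD and the RIP kinases, whereas most of the others recruit TRAF proteins and activate NF-kappaB. In kidney, TNF and its receptors are known for inflammation and tubular cell death, and many other members serve as costimulators between T cells, B cells and myeloid cells.

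Expression is given as CPM, the deposited count of a gene relative to all gene counts of that mouse, on library sizes scaled by TMM. Gene counts totalled 14892524 to 27459962 per mouse (median 19961466). Differences are log2 fold changes ± standard error (SE) from edgeR's quasi-likelihood test on 15185 genes in all 31 mice, with Benjamini-Hochberg adjusted p under 0.05 taken as passing. One library stood apart: RGLS4326-treated mouse 9 scored 73.1 on the first principal component, near the wild-type mice at 78.3 to 91.1, whereas no other treated mouse exceeded 17.3. Wild-type mice 3 and 4 were closer to each other than any other pair, though beyond sampling noise, and were kept as separate mice. The numbers in the library names restart within each group and so form 3 index series, which are not stated to be batches.

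Levels per exon length were first set in order for the 35 members with an annotated length. In wild type Tnfrsf21 (death receptor 6) had the highest mean at 117 CPM per kb, followed by Ltbr, the lymphotoxin beta receptor, at 43.2, Tnfrsf1a, the main TNF receptor, at 19.4, Tnfrsf12a, the TWEAK receptor, at 13.4 and Tnfsf10 (TRAIL) at 11.4 CPM per kb. The most abundant members were thus mostly receptors. Tnfsf8 (CD30 ligand) was lowest, at 0.0157 CPM per kb. With PBS, Ltbr (48.8 CPM per kb) and Tnfrsf21 (46.9) led, a difference smaller than the mouse-to-mouse spread of Tnfrsf21 (coefficient of variation 20.9%). Tnfrsf1a (35.9) and Tnfrsf12a (29.0) came next, and Tnfsf11 (RANKL) was lowest at 0.155 CPM per kb.

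**Figure D1:**
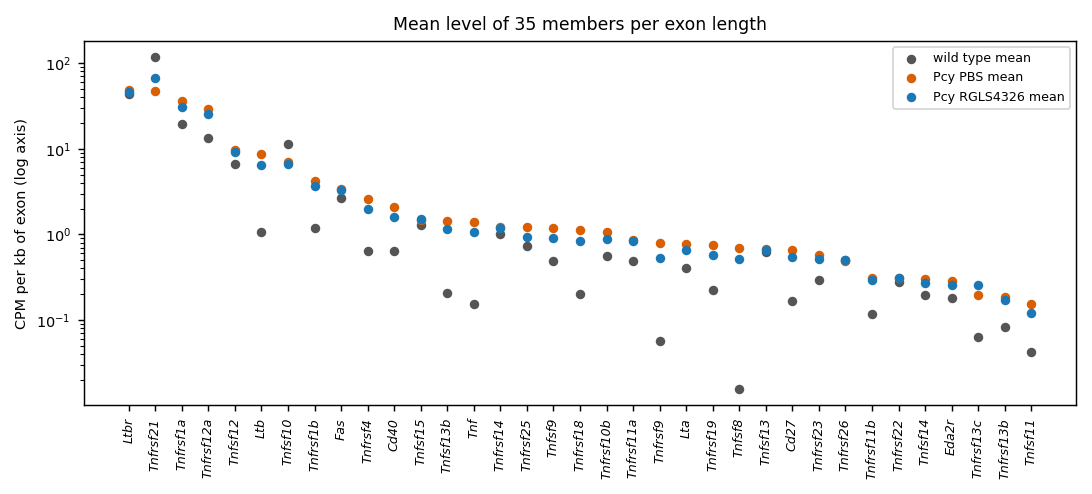
Mean CPM per kb of exon (log axis) of 35 members, ordered by the PBS mean, in wild type (grey), Pcy PBS (orange) and Pcy RGLS4326 (blue). Levels run from 48.8 CPM per kb for Ltbr to 0.155 for Tnfsf11 with PBS, and the gap between wild type and PBS is widest for Tnfsf8, at 0.0157 against 0.693.

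The first comparison asked what differs between cystic and healthy kidney. Of the 36 members, 29 were higher in PBS-treated Pcy/CD1 kidneys than in wild type, 2 were lower (Tnfrsf21 and Tnfsf10) and 5 did not pass. Over all genes tested 74.3% passed in either direction, 36.6% were lower and 37.7% were higher. Of the 29 higher members 9 (Tnf, Tnfrsf11b, Tnfrsf13b, Tnfrsf13c, Tnfrsf18, Tnfrsf9, Tnfsf11, Tnfsf14 and Tnfsf8) had under 10 counts in every wild-type mouse, so they met the count minimum only through the Pcy/CD1 mice in which they were high, and their direction supports nothing about the family. Of all genes tested 707 were of this kind, and 83.6% of them were higher with none lower. Of the other 27 members 20 were higher and 2 lower, against 35.4% higher of the other genes. Of these 20, Cd27, Eda2r, Lta, Tnfrsf19, Tnfrsf4 and Tnfsf9 had under 10 counts in some of the 5 wild-type mice. They too needed Pcy/CD1 mice to meet the count minimum, so the 27 are not free of this selection. With an absolute log2 fold change over 0.5 required as well, 26 members were higher (24.6% of all genes) and 2 were lower (17.8%), 28 in all (42.4%). The median log2 fold change was 0.83 over the 27 members with 10 or more counts in a wild-type mouse and -0.023 over genes of that kind. With the 9 included, as in the counts that follow, it was 0.95, against 0.010 over all genes tested. By class, 10 of 13 ligands, 4 of 5 death-domain receptors, 13 of 14 TRAF-binding receptors and 2 of 4 decoy or other receptors were higher. In 14 members no PBS-treated mouse overlapped with wild type, 13 of them higher; for all genes these shares were 42.2% and 20.3%, with 21.9% lower. On CPM without TMM scaling there were 20 members, 19 of them higher, against 48.8% of all genes.

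**Figure D2:**
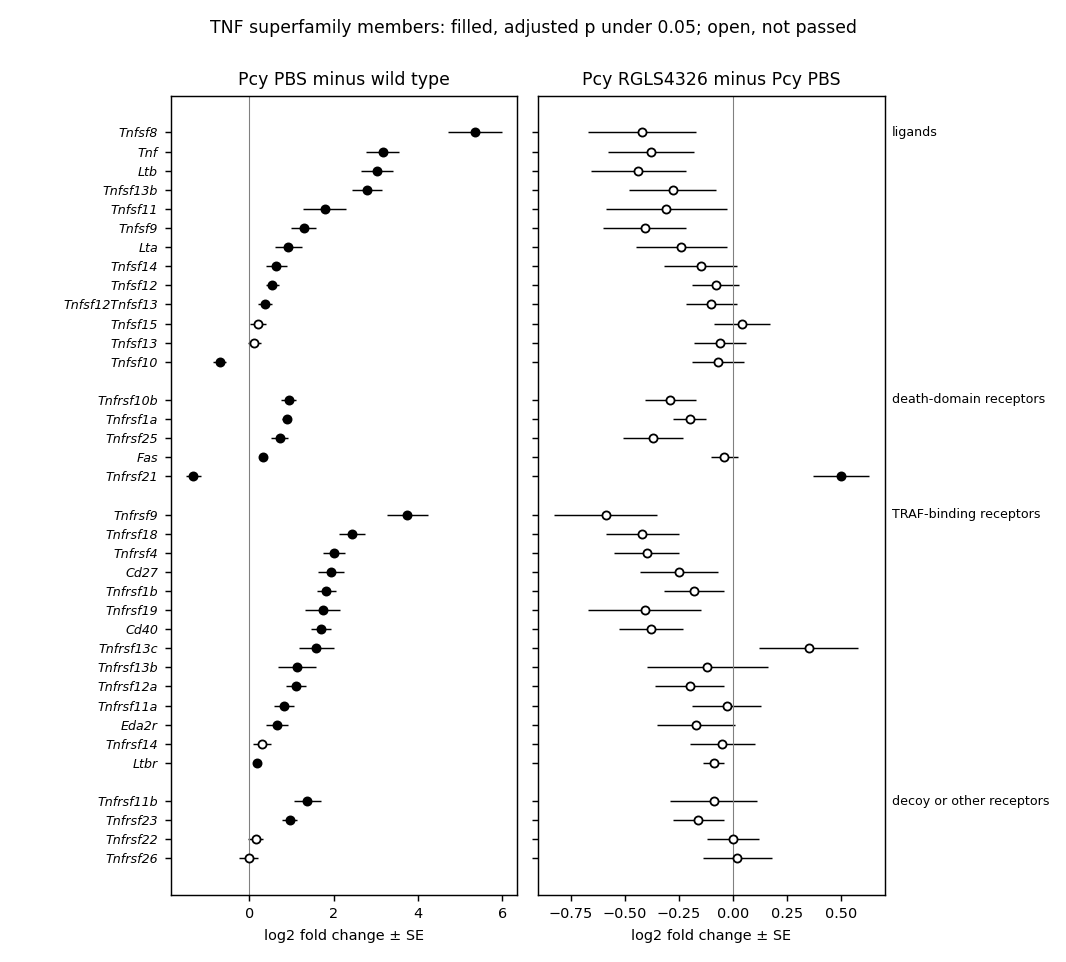
Log2 fold change ± SE of 36 members by class, for PBS against wild type (left) and RGLS4326 against PBS (right); filled points passed an adjusted p under 0.05 and open points did not, and the 2 axes differ in scale. On the left 31 members are filled, from 5.34 for Tnfsf8 to -1.32 for Tnfrsf21; on the right only Tnfrsf21 is filled, at 0.50.

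Among ligands, Tnfsf8, which signals to activated lymphocytes through CD30, changed most. It read 0.0590, 0, 0.0592, 0.121 and 0.0602 CPM in the 5 wild-type mice, a total of 5 counts. With PBS it ran from 1.19 to 4.89 CPM (median 2.67), and with RGLS4326 from 0.204 to 3.84 CPM (median 1.92). Every PBS-treated mouse lay above every wild-type mouse. The log2 fold change was 5.34 ± 0.64 (adjusted p = 3.57e-08), a size that rests on the few wild-type counts.

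Tnf, the founding inflammatory cytokine of the family (chr17:35199381-35202007, GRCm38, minus strand), read 0.295, 0.178, 0.177, 0.363 and 0.241 CPM in wild type. It ran from 1.12 to 3.39 CPM with PBS (median 2.36) and from 0.460 to 3.47 CPM with RGLS4326 (median 1.71). No Pcy/CD1 mouse of either group fell into the wild-type range. Tnf was 8.95-fold higher with PBS than in wild type (log2 fold change 3.16 ± 0.38, adjusted p = 4.06e-08).

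Its neighbours on chromosome 17, Lta at chr17:35203165-35205351 and Ltb at chr17:35194439-35196320, encode the subunits of lymphotoxin, which lymphocytes use to shape lymphoid tissue. Ltb read 0.826, 1.13, 2.07, 2.72 and 1.26 CPM in wild type and 7.75 to 21.8 CPM with PBS (median 12.5). With RGLS4326 it ran from 1.38 to 15.2 CPM (median 9.55), and treated mouse 9, at 1.38 CPM, was the only treated mouse within the wild-type range. Ltb rose by a log2 fold change of 3.03 ± 0.38 (adjusted p = 6.39e-08), and Lta by 0.93 ± 0.33 (adjusted p = 0.0118).

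Of the other ligands, Tnfsf13b (BAFF), the survival factor of B cells, averaged 1.41 ± 0.172 CPM in wild type (SD, n = 5) and 9.75 ± 2.60 CPM with PBS (SD, n = 12), with a log2 fold change of 2.79. Tnfsf11, the osteoclast factor RANKL, rose by 1.79 from 8 wild-type counts in all, and Tnfsf9, the ligand of 4-1BB, by 1.29. Tnfsf14 (LIGHT) rose by 0.64, Tnfsf12 (TWEAK) by 0.55 and the read-through Tnfsf12Tnfsf13 by 0.37. Tnfsf12 and Tnfsf13 are neighbours on chromosome 11, the read-through by its name joins them, and reads ambiguous between genes were not counted, so these values are uncertain. Tnfsf13 (APRIL, 0.12) and Tnfsf15 (TL1A, 0.21) did not pass.

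Tnfsf10 was the only ligand with a lower level in PBS-treated kidneys, and 1 wild-type mouse set its size. It read 120, 57.3, 41.5, 41.1 and 41.7 CPM in wild type and 31.1 to 44.7 CPM with PBS (median 36.5). The groups overlapped. The log2 fold change was -0.70 ± 0.16 (adjusted p = 0.000243), and -0.29 without wild-type mouse 1 (adjusted p = 0.0187).

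Tnfrsf21 was the exception among death-domain receptors (chr17:43016555-43089189, GRCm38, plus strand). It read 556, 525, 432, 435 and 461 CPM in wild type. With PBS the 12 mice ran from 118 to 259 CPM (median 189), so that every PBS-treated mouse lay below every wild-type mouse. The log2 fold change was -1.32 ± 0.17 (adjusted p = 1.02e-07), a level 0.400 times that of wild type.

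The other death-domain receptors were higher. Tnfrsf1a, which carries the death signal of TNF, read 50.7, 50.3, 51.1, 48.2 and 51.3 CPM in wild type, 77.0 to 119 CPM with PBS (median 92.4) and 53.8 to 103 CPM with RGLS4326 (median 82.8). Neither Pcy/CD1 group reached down into the narrow wild-type range. It rose by a log2 fold change of 0.89 ± 0.11 (adjusted p = 4.95e-08). Tnfrsf10b, the receptor of TRAIL, read 2.83, 2.26, 2.90, 3.75 and 3.67 CPM in wild type and 4.36 to 7.47 CPM with PBS (median 5.89), and rose by 0.94 ± 0.18 (adjusted p = 3.70e-05) with no overlap. Treated mice ran from 2.99 to 6.17 CPM (median 5.25) and overlapped with wild type.

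Fas read 5.96, 4.16, 5.68, 5.99 and 5.90 CPM in wild type, 5.83 to 7.71 CPM with PBS (median 7.04) and 5.59 to 7.92 CPM with RGLS4326 (median 6.68). Its rise was small, 0.33 ± 0.088 (adjusted p = 0.00146), and the groups overlapped. Its ligand Fasl was below the count minimum, with 14 counts over the wild-type mice and 66 over those given PBS. Tnfrsf25 (DR3), a costimulator of T cells, rose by 0.72 ± 0.20.

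The TRAF-binding receptors included costimulators of T cells with large changes. Tnfrsf9 (4-1BB) read 0, 0.178, 0.296, 0.121 and 0.181 CPM in wild type, 1.21 to 4.16 CPM with PBS (median 1.82) and 0.153 to 2.22 CPM with RGLS4326 (median 1.53). Its log2 fold change was 3.75 ± 0.49 (adjusted p = 1.16e-07). PBS and wild type did not overlap, and treated mouse 9 alone among the treated mice lay within the wild-type range.

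Tnfrsf18 (GITR), typical of regulatory and activated T cells, read 0.236, 0.238, 0.414, 0.363 and 0.301 CPM in wild type and 1.24 to 2.46 CPM with PBS (median 1.49). It rose by 2.44 ± 0.30 (adjusted p = 4.64e-08). Treated mice ran from 0.409 to 1.99 CPM (median 1.29). Tnfrsf4 (OX40) read 0.472, 0.950, 1.18, 0.908 and 0.903 CPM in wild type, 2.34 to 5.38 CPM with PBS (median 3.68) and 1.43 to 4.15 CPM with RGLS4326 (median 2.64). It rose by 2.01 ± 0.25 (adjusted p = 6.90e-08), and no Pcy/CD1 mouse of either group reached the wild-type range.

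Tnfrsf1b, the second TNF receptor, found mainly on leukocytes and endothelium, read 3.36, 3.86, 5.44, 4.30 and 5.48 CPM in wild type, 11 to 22.9 CPM with PBS (median 16.2) and 6.34 to 23.1 CPM with RGLS4326 (median 13.9). The 3.55-fold rise (log2 fold change 1.83 ± 0.23, adjusted p = 5.51e-08) separated both Pcy/CD1 groups from wild type. Further rises with no overlap were those of Cd27 (1.94) and Cd40 (1.71), which act between T cells and B cells or antigen-presenting cells, and of Tnfrsf12a (1.11), which averaged 25.9 ± 4.86 CPM in wild type (SD, n = 5) and 56.0 ± 16.7 CPM with PBS (SD, n = 12).

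Rises with overlapping groups were seen for Tnfrsf19 (TROY, 1.74), the BAFF receptors Tnfrsf13c (1.59) and Tnfrsf13b (TACI, 1.14), Tnfrsf11a (RANK, 0.83), Eda2r, a receptor of ectodysplasin (0.66), and Ltbr (0.18). Without wild-type mouse 1, at 6.02 CPM against 1.21 to 3.19 CPM in the other wild-type mice, the value of Tnfrsf11a was 1.29. Tnfrsf14, the receptor of LIGHT, did not pass (0.30), but did without wild-type mouse 1 (0.59, edgeR, adjusted p = 0.0136). In all, 5 of the calls depended on wild-type mouse 2: without it Eda2r, Ltbr, Tnfrsf13b, Tnfsf12Tnfsf13 and Tnfsf14 no longer passed, leaving 26 of 36. Eda2r and Tnfrsf13b were also lost without wild-type mouse 5, Tnfsf14 without wild-type mouse 4 and Lta without wild-type mouse 1. Tnfsf12Tnfsf13 was lost in 10 of 17 fits that left out 1 mouse, those without wild-type mice 2 to 5 or PBS-treated mice 1, 3, 5, 6, 9 or 10, and also without a filter on low counts, with index series as a covariate and in DESeq2, which lost Tnfsf14 as well.

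The secreted decoy Tnfrsf11b (osteoprotegerin), which captures RANKL and TRAIL, read 0.177, 0.297, 0.473, 0.242 and 0.482 CPM in wild type, 0.415 to 1.36 CPM with PBS (median 0.870) and 0.307 to 1.34 CPM with RGLS4326 (median 0.888). It rose by 1.38 ± 0.32 (adjusted p = 0.000358). Tnfrsf23, a mouse decoy receptor of TRAIL, read 0.944, 1.60, 1.18, 0.848 and 1.26 CPM in wild type, 1.37 to 2.95 CPM with PBS (median 2.40) and 1.36 to 2.55 CPM with RGLS4326 (median 2.05). It rose by 0.96 ± 0.18 (adjusted p = 1.59e-05), although its range overlapped with wild type. Its close relatives Tnfrsf22 (0.15) and Tnfrsf26 (-0.01) on the same stretch of chromosome 7 did not pass, and reads of such similar genes may be split between them.

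**Figure D3:**
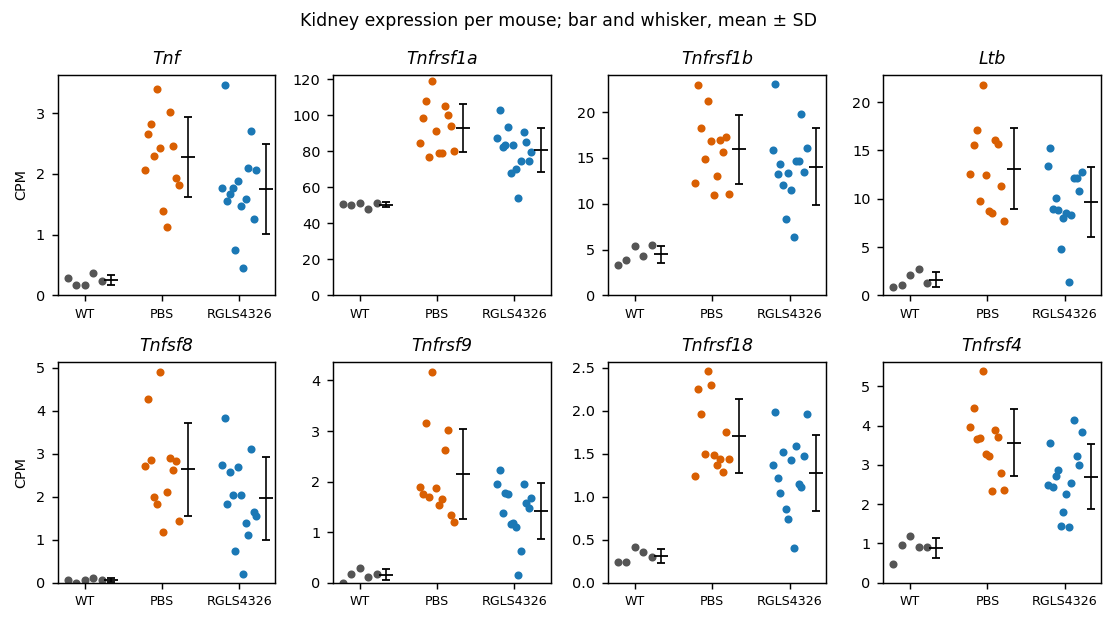
CPM of 8 members in each of 5 wild-type, 12 PBS-treated and 14 RGLS4326-treated mice (points), with mean ± SD beside them, each panel on its own linear axis from 0. All PBS-treated mice sit above all wild-type mice in every panel, for instance 11 to 22.9 against 3.36 to 5.48 CPM for Tnfrsf1b, and the RGLS4326 points overlap with the PBS points.

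Markers of leukocytes were then counted, beside the 37.7% of all genes that were higher and the 36.6% that were lower. All 8 T cell markers were higher with PBS than in wild type, and their summed level ran from 5.01 to 8.79 CPM in wild type, 33.5 to 49.1 CPM with PBS and 8.33 to 45.1 CPM with RGLS4326. All 6 macrophage markers were higher (153 to 163 CPM, 308 to 509 CPM and 148 to 595 CPM in the same order), as were 3 of 4 dendritic cell markers (5.29 to 10.7, 14.4 to 30.9 and 7.21 to 28.5 CPM). Of 6 B and plasma cell markers 4 were higher and 1 was lower (39.4 to 171, 25.7 to 74.0 and 24.6 to 83.2 CPM). Most of this sum was Igj, the immunoglobulin joining chain, which was the lower one and averaged 92.8 CPM in wild type and 31.7 CPM with PBS. In addition, 1 of 3 tested NK cell and 1 of 3 tested neutrophil markers were higher, near the share of all genes. No marker of these leukocyte lists was at 0 in every mouse of a group. Their part in the rise of the ligands and receptors was not tested.

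Kidney cell markers were counted as well, to be read beside the same shares of all genes. All 5 proximal tubule markers were lower with PBS, with summed levels of 12423 to 13639 CPM in wild type, 3623 to 7664 CPM with PBS and 4812 to 11565 CPM with RGLS4326. All 3 markers of injured tubule were higher (5.96 to 25.8, 263 to 1252 and 13.8 to 727 CPM), as were 2 of 3 collecting duct markers and 3 of 4 fibroblast markers. Of thick limb and distal tubule markers 2 of 3 were lower, of endothelial markers 1 of 4, and none of 3 podocyte markers passed. Whether these shifts contribute to the lower Tnfrsf21 or the higher Tnfrsf12a was not tested.

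Downstream genes were then counted in lists. Of 37 adaptors and regulators of TNF receptor signalling, 18 were higher and 12 lower with PBS, with a median log2 fold change of 0.14. Of all genes 37.7% were higher and 36.6% lower, shares to be read beside this count and those of the lists that follow. Those with the smallest p were Chuk, an IkappaB kinase (-0.98), Traf5, an adaptor of the costimulatory receptors (0.60), and, with equal p, Ripk3, a kinase of necroptosis (1.75), and Birc3, an inhibitor of apoptosis (1.62). Of 10 NF-kappaB subunits and inhibitors 8 were higher and none lower (median 1.01). By smallest p these were the inhibitor Nfkbie (1.80), the noncanonical subunit Nfkb2 (1.38) and the atypical inhibitor Nfkbiz (1.76), and the noncanonical subunit Relb, named after its value was seen, had the largest log2 fold change of the list (1.89). Of 19 tested TNF and NF-kappaB target genes 15 were higher and 2 lower (median 2.12), with the smallest p for complement C3 (3.92), the adhesion molecule Vcam1 (3.23) and the monocyte chemokine Ccl2 (3.97).

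Targets of the lymphotoxin beta receptor could be tested for 2 of 6 genes. Both the B cell chemokine Cxcl13 (2.60) and the adhesion molecule Madcam1 (2.24 ± 0.78) were higher, whereas Ccl19 and Ccl21a had no counts in any mouse. All 6 genes summed to only 0.177 to 0.963 CPM in wild type, so both sizes rest on few wild-type counts. For Madcam1 the groups overlapped. Of the 4 tested family genes outside the naming rule, Relt (2.45), Ngfr (1.25) and Eda (0.89) were higher, and Edar had a value of -0.05. Cd40lg, the ligand of CD40, averaged 0.167 CPM in wild type and 0.283 CPM with PBS and was too low to be tested.

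Because NF-kappaB is a regulator of many of these genes, its consensus motif was searched on both strands in RefSeq promoters (GRCm38.p6, 250 bases before to 50 bases after the start). It lay in promoters of 2 of 28 members with a promoter entry (7.14%), against 6.43% of genes tested and 4.51% of all promoters of this length, a share near the background. Of members higher with PBS 2 of 23 held it (8.7%), against 7.29% of all higher genes, and the promoters of Tnfsf8, Tnf and Tnfsf13b held none. The upstream stretches of these 2 members are shown with the motif in capitals, Ltb at chr17:35194257-35194506 and the second of the Tnfrsf9 starts at chr4:150927749-150927998, both on the plus strand.
Ltb: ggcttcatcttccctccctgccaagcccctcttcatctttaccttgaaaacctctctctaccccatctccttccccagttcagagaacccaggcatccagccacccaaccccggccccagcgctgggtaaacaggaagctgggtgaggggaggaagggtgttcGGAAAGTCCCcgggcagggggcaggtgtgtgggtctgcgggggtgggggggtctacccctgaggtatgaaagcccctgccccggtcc
Tnfrsf9: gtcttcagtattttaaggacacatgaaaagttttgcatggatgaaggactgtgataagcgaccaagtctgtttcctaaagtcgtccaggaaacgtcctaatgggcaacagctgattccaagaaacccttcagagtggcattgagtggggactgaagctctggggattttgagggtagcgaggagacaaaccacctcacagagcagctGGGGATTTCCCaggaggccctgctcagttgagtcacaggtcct
The motif began 87 bases before the start of Ltb, and in Tnfrsf9 it matched at 2 overlapping positions, 43 and 42 bases before the start. These are matches of letters only, and binding was not measured.

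The second comparison asked what RGLS4326 changed. A single member passed between RGLS4326 and PBS: Tnfrsf21, which was higher with treatment. Of all genes 15.8% passed, 9.15% higher and 6.66% lower, and 2.15% did so with an absolute log2 fold change over 0.5 (0.935% higher, 1.22% lower), among them Tnfrsf21. No member was lower by this test. At an unadjusted p under 0.05 there were 9 members (36.8% of all genes), and DESeq2 called 3, Tnfrsf21, Tnfrsf25 (adjusted p = 0.0427) and Tnfrsf4 (adjusted p = 0.0495). No member, and 0 of all genes tested, had groups without overlap.

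In the 12 PBS-treated mice Tnfrsf21 read 167, 118, 185, 167, 212, 201, 241, 237, 178, 154, 193 and 259 CPM. With RGLS4326, mice 1 to 14 had 217, 161, 242, 251, 173, 246, 174, 325, 409, 349, 279, 298, 396 and 301 CPM. Of the treated mice, numbers 8 to 14 exceeded every PBS-treated mouse, the other 7 lay within the PBS range, and none reached the lowest wild-type mouse at 432 CPM. On CPM without TMM scaling, treated and wild-type mice overlapped. Means were 482 ± 55.8 CPM in wild type (SD, n = 5), 193 ± 40.3 CPM with PBS (SD, n = 12) and 273 ± 79.0 CPM with RGLS4326 (SD, n = 14).

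The treatment log2 fold change of Tnfrsf21 was 0.50 ± 0.13, or 1.42-fold (adjusted p = 0.0205). It was 0.44 without treated mouse 9 (adjusted p = 0.0352), and the call held in each of 26 fits that left out 1 PBS-treated or RGLS4326-treated mouse. Within the 3 index series the values were 0.45, 0.25 and 0.72, all in the same direction and none passing on 4 or 5 mice a group (adjusted p = 1, 0.504 and 0.164). Of 5 proximal tubule markers 1 passed as higher with RGLS4326, Cubn (0.38), against 9.15% of all genes. The others had values above 0 without passing: Lrp2 (0.40), Slc34a1 (0.35), Slc5a2 (0.33) and Slc5a12 (0.51). Of 3 collecting duct markers 2 were lower, against 6.66% of all genes. The part of these markers in the Tnfrsf21 value was not tested.

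**Figure D4:**
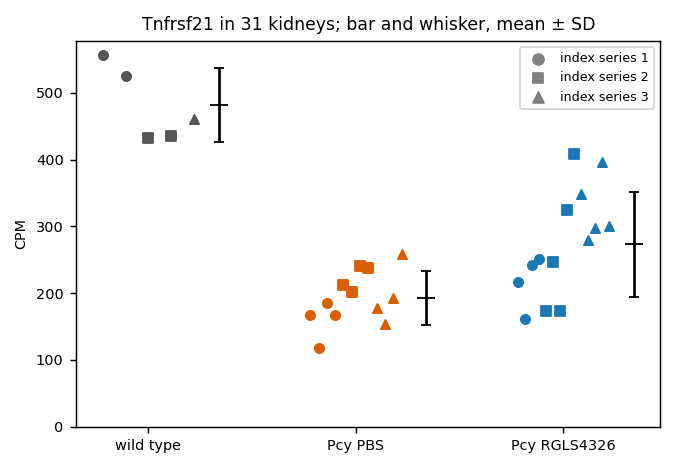
CPM of Tnfrsf21 in 31 kidneys by group, with the index series of the library name as the symbol and mean ± SD beside each group, on a linear axis from 0. Means are 482, 193 and 273 CPM, and 7 of 14 RGLS4326-treated mice lie above the highest PBS-treated mouse at 259 CPM.

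RGLS4326 targets miR-17, and 7 mature mouse miRNAs in RefSeq (GRCm38.p6) share its seed. They are shown because this seed fixes which mRNA sites the inhibitor could release, with the seed, bases 2 to 8, in capitals.
mmu-miR-17-5p: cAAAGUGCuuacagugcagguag
mmu-miR-20a-5p: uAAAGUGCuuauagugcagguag
mmu-miR-93-5p: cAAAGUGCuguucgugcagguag
mmu-miR-106b-5p: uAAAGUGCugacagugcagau
mmu-miR-6383: uAAAGUGCugugucacggaca
mmu-miR-20b-5p: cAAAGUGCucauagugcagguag
mmu-miR-106a-5p: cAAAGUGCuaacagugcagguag
Matches to this seed were looked for in the longest annotated 3'UTR of each gene (GENCODE vM21, GRCm38), as GCACTTT opposite bases 2 to 8, with a following A for the 8mer form. Only these forms were counted, so sites that pair with fewer bases of the seed were left out. Of 35 members with a 3'UTR 5 held at least 1 match (14.3%), against 14% of 13832 genes tested.

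Tnfrsf21 was the only member with 2 matches, both of the 8mer form and both in exon 6 of 6, opposite bases 2 to 8 at chr17:43088296-43088302 and chr17:43088825-43088831. The other 4 members held 1 match each without the following A. Sites are given 5' to 3' on the transcript, with the match in capitals.
Tnfrsf21, first site: caacactattctgtGCACTTTA
Tnfrsf21, second site: cttaagtgccagtgGCACTTTA
Tnfrsf19: tctgttgaagaaagGCACTTTc
Tnfrsf22: ctctctgcacatggGCACTTTc
Tnfsf11: tgtatttaactggtGCACTTTg
Tnfsf13b: cagatatttagttaGCACTTTt
Their treatment log2 fold changes were 0.50 for Tnfrsf21, -0.41 for Tnfrsf19, -0.00 for Tnfrsf22, -0.31 for Tnfsf11 and -0.28 for Tnfsf13b. Of these values only that of Tnfrsf21 passed, and no relation between matches and response was tested. Of genes tested with a 3'UTR, 24 held at least 2 matches of the 8mer form (0.174%). This set was defined after the sites and the value of Tnfrsf21 were seen, so its counts are no test of these sites. These had a median treatment log2 fold change of 0.10, with 4 higher and none lower, against 9.15% and 6.66% of all genes. Tnfrsf21 is 1 of these 24 and 1 of the 4. A match is a description of the sequence, and its use was not measured.

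The other 35 members did not pass, which does not show that they were unaltered. The log2 fold change was below 0 in 32 of 36 members, against 51.1% of all genes, without a test, and its median was -0.18 over members and -0.004 over all genes. Among costimulators the value was -0.59 ± 0.24 for Tnfrsf9 (adjusted p = 0.0777), -0.42 ± 0.17 for Tnfrsf18 (0.0739) and -0.40 ± 0.15 for Tnfrsf4 (0.0657). Among TNF and its receptors it was -0.38 ± 0.20 for Tnf (0.158), -0.20 ± 0.076 for Tnfrsf1a (0.0600) and -0.18 ± 0.14 for Tnfrsf1b (0.354). Tnfrsf25 was nearest to passing, at -0.37 ± 0.14 (0.0557), and Cd40 had -0.38 ± 0.15 (0.0749). The next highest value to Tnfrsf21 was that of Tnfrsf13c, at 0.35 ± 0.23 (0.254).

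Which members passed varied with single mice. Leaving out RGLS4326-treated mouse 2, which was highest of its group in Tnf, Tnfrsf1b and Tnfsf8, gave 8 calls, Tnfrsf21 and lower Cd40, Tnf, Tnfrsf18, Tnfrsf1a, Tnfrsf25, Tnfrsf4 and Tnfrsf9. Leaving out PBS-treated mouse 8 gave 4, PBS-treated mice 1, 7 or 12 and treated mice 11 or 14 gave 3, PBS-treated mouse 4 and treated mice 1, 5 or 12 gave 2, and each of the other mice gave 1. The share of all genes that passed in these fits is not given, so the counts show dependence on single mice and not a response of the family.

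In the pathway lists, 5 of 37 adaptors and regulators were higher with RGLS4326 and 2 lower, against 9.15% and 6.66% of all genes. Traf5 (-0.19) and Traf2 (-0.25) were the lower ones, and Map3k5 (0.40), Chuk (0.30), Tab3 (0.23), Xiap (0.18) and Ripk1 (0.10) the higher ones. Of NF-kappaB genes 1 of 10 passed, Nfkbie (-0.42), and of target genes 2 of 19 were higher, Tnfaip8 (0.42) and Sod2 (0.22), and 1 was lower, Tnfaip2 (-0.33). Edar (-0.48), outside the naming rule, was lower. These genes were named after their values were seen, apart from Traf5, Chuk and Nfkbie.

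The third comparison asked what still differed from wild type after treatment. Between RGLS4326 and wild type 23 members were higher and 2 lower, 69.4% of members against 64.9% of all genes (32.5% higher, 32.4% lower), with the same 9 members of low wild-type counts included. With an absolute log2 fold change over 0.5 there were 21 higher and 2 lower, against 20.3% and 11.3% of all genes (31.5% in all). The members that passed for PBS against wild type and had no passing value here were Eda2r, Lta, Ltbr, Tnfrsf25, Tnfsf12Tnfsf13 and Tnfsf14, and whether the comparisons differ for them was not tested beyond the treatment contrast above. Of these Eda2r passed without wild-type mouse 4, Lta without wild-type mouse 5 or treated mice 6 or 9, in DESeq2 and within index series 1, and Tnfrsf25 without wild-type mouse 3, as did Tnfrsf14 without wild-type mouse 1. Tnfrsf13b, close to the threshold (edgeR, adjusted p = 0.0478), passed in 8 of 19 fits that left out 1 mouse, and was lost without wild-type mice 1, 2 or 5 or treated mice 1, 2, 3, 4, 7, 8, 10 or 12 (log2 fold change 0.71 to 1.54 over all 19 fits). It was also lost without a filter and with the 2 groups alone. Both comparisons share the wild-type mice. Tnfrsf21 stood at -0.82 ± 0.17 against wild type (adjusted p = 0.000129), Tnf at 2.78 ± 0.38 and Tnfrsf1b at 1.65 ± 0.22. In 6 members no treated mouse overlapped with wild type (14.8% of all genes, 5.04% higher and 9.75% lower): Tnfsf8, Tnf, Tnfrsf1a, Tnfrsf1b, Tnfrsf4 and Tnfrsf21. On CPM without TMM scaling there were 8, all higher (17.6% of all genes), and Tnfrsf21 overlapped. Without treated mouse 9 this was 13 members (33.4% of all genes).

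Treated mouse 9 was nearest to the wild-type side of the 14 treated mice in 20 of the 31 members that differed between PBS and wild type, and lay within the wild-type range in 18. Over these members, at most 13 of the other treated mice lay within the wild-type range, with a median of 1. It read 0.460 CPM for Tnf, 1.07 CPM for Tnfsf13b and 23.1 CPM for Tnfrsf12a, and 409 CPM for Tnfrsf21. Its summed T cell markers were 8.33 CPM, its macrophage markers 148 CPM and its injured tubule markers 13.8 CPM, each the lowest of its group, and its proximal tubule markers, at 11565 CPM, the highest.

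Ligands and their receptors were also compared across mice, as Pearson r and Spearman rho of log2(CPM + 1) within each Pcy/CD1 group, with permutation p-values adjusted over 28 relations (14 pairs in 2 groups). A pair passed where both adjusted p-values were under 0.05. Tnf passed with both of its receptors in each group. With PBS, r was 0.83 for Tnf and Tnfrsf1a (rho 0.85, adjusted permutation p = 0.0058 and 0.0098, 12 mice) and 0.76 for Tnf and Tnfrsf1b (rho 0.78, adjusted permutation p = 0.014 and 0.018). Without the 2 mice farthest from the median of Tnf these were 0.83 and 0.74. With RGLS4326, r was 0.89 for Tnfrsf1a (rho 0.82, adjusted permutation p = 0.00056 and 0.0098, 14 mice) and 0.95 for Tnfrsf1b (rho 0.79, adjusted permutation p = 0.00056 and 0.010). Without the 2 farthest mice they were 0.70 and 0.88, and without treated mouse 9 they were 0.81 and 0.92.

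Other pairs passed in 1 group. With PBS these were Ltb and Ltbr (r = 0.78, rho 0.80, adjusted permutation p = 0.0092 and 0.018), Tnfsf12 and Tnfrsf12a (r = 0.82, rho 0.73, adjusted permutation p = 0.0085 and 0.030) and Tnfsf13b and Tnfrsf13c (r = 0.72, rho 0.77, adjusted permutation p = 0.024 and 0.018). Without the 2 farthest mice r was 0.65, 0.78 and 0.37, so the last relation rests on those mice. With RGLS4326 it was Lta and Tnfrsf1b (r = 0.86, rho 0.75, adjusted permutation p = 0.0021 and 0.018), with r = 0.60 without the 2 farthest mice and 0.74 without treated mouse 9. Tnfsf13b and Tnfrsf13c had r = 0.75 with RGLS4326 (rho 0.64, adjusted permutation p = 0.0085 and 0.050), and 0.46 without the 2 farthest mice. Differences between the groups were not tested.

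Over all 14 pairs the median r was 0.48 with PBS and 0.47 with RGLS4326, the latter 0.24 without treated mouse 9. Tnfsf10 and Tnfrsf10b, TRAIL and its receptor, had the only negative values, -0.26 and -0.47, neither passing. The index series hold fewer than 6 mice of a group and gave no value of their own; with values centred on their series, 5 pairs passed with PBS and 4 with RGLS4326. Both genes of a pair were read from the same libraries, and the part of leukocyte markers in these relations was not tested. Values of r for other gene pairs in these mice were not taken, so these counts and medians have no background to be read against.

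**Figure D5:**
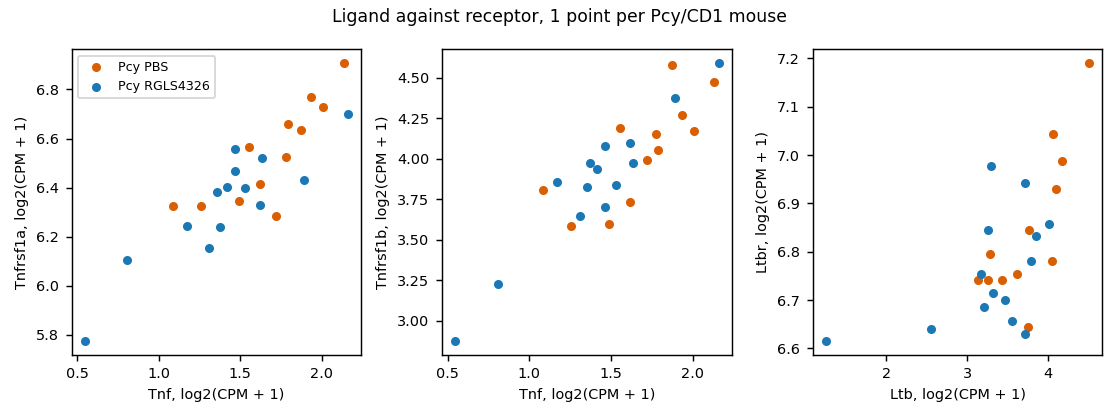
Receptor against ligand in log2(CPM + 1) for Tnf and Tnfrsf1a, Tnf and Tnfrsf1b, and Ltb and Ltbr, with 1 point for each of 12 PBS-treated (orange) and 14 RGLS4326-treated (blue) mice. For Tnf and Tnfrsf1b, r was 0.76 with PBS and 0.95 with RGLS4326, and treated mouse 9 is the point lowest in Tnf, at 0.460 CPM.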

How the data were processed

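Kidney poly(A) RNA of 31 mice was sequenced from TruSeq Stranded mRNA libraries. According to the methods and the submitters' processing notes, the authors trimmed reads with Trim Galore, aligned them to GRCm38/mm10 with STAR and counted them per gene with HTSeq 0.6.1; the deposited values are these raw counts. The strand setting and annotation are not given in the sources used here. Reads of no feature (10.4 to 12.5%) and ambiguous reads (0.381 to 0.503%) were left out of library sizes.

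Counts were tested in edgeR 4.0.16 (R 4.3.3) with filterByExpr, TMM scaling, glmQLFit and glmQLFTest, with 1 coefficient per group in a single fit of all mice and Benjamini-Hochberg adjustment over 15185 genes. SE was approximated as the absolute log2 fold change over the square root of F. The fit was tested on simulated data. Alternatives were RLE scaling, no filter, DESeq2 1.42.0, the 2 groups alone, index series, a replicate block and leaving out each mouse. Non-overlap was counted on TMM-scaled CPM. Correlations used 100000 permutations in numpy 2.4.6, with ranks from scipy 1.17.1.

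Members and lists were chosen with earlier results of these data known. Every member is named. Values by mouse are given for members that passed with treatment, the 3 per class with the largest passing disease change, and Tnf, Tnfrsf1a, Tnfrsf1b and Fas; of each pathway list, marker lists apart, the 3 genes with the smallest disease p are named. Tnfsf10, Igj, treated mouse 9 and the genes with at least 2 matches of the 8mer form were singled out after values were seen. P-values measure the spread between mice.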

Additional observations from a re-analysis of the deposited data

Results flagged for a closer look

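In the 5 wild-type mice, 36 members were examined for a mouse far from the others by Dixon's test, which chance flags in about 1 of 20 groups, and 3 were found. Fas was low in wild-type mouse 2, at 4.16 CPM against 5.68 to 5.99 CPM in the others. Without it the disease log2 fold change of Fas was 0.24 (edgeR, adjusted p = 0.0129). Tnfrsf25 was high in wild-type mouse 3, at 2.37 CPM against 1.38 to 1.60 CPM, and its disease log2 fold change was 0.88 without that mouse (edgeR, adjusted p = 0.000533). Tnfsf10 was high in wild-type mouse 1, at 120 CPM against 41.1 to 57.3 CPM.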

How the results depend on the processing

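The counts in this paragraph come without the share of all genes in the same fits, so they show how calls varied and nothing particular to the members. Over single mice left out, 26 to 31 members passed between PBS and wild type, 23 to 26 between RGLS4326 and wild type, and 1 to 8 between RGLS4326 and PBS. Within index series 2 alone, with 2 wild-type mice, 18 members passed between PBS and wild type and 2 between RGLS4326 and wild type; Eda2r then stood at -0.084 (PBS against wild type) and Tnfrsf13b at -0.288 (RGLS4326 against wild type), neither passing. Between RGLS4326 and PBS no member passed within index series 1, 2 or 3 (0 each), whereas DESeq2 called 3. Without a filter on low counts 4 adaptors passed with treatment in place of 7. Without treated mouse 9, an alternative chosen after seeing the data, 13 members did not overlap between RGLS4326 and wild type, and 3 pairs passed with RGLS4326. A sign change with no call in either fit was seen 69 times, 41 of them with treatment and over 19 members. The causes were not tested.

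Replicate numbers are shared between groups but name different mice. Deviations of same-numbered mice had a mean correlation of -0.0554 for PBS with RGLS4326 (over 0.1 in 4 of 12 pairs) and 0.0673 for PBS with wild type (over 0.1 in 1 of 5), so the numbers were not taken as pairs. With the replicate block 0 members passed between RGLS4326 and PBS (Tnfrsf21 0.41, adjusted p = 0.0698), and Eda2r and Tnfsf12Tnfsf13 no longer passed between PBS and wild type, nor Tnfrsf13b between RGLS4326 and wild type. Members with few counts, such as Tnfsf8 and Tnfsf11 in wild type, have fold changes of low precision.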
